A study of Danio rerio with 54 samples.

Results

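Untreated zebrafish larvae were sampled 3 times within 2 h, at 96, 97 and 98 hours post fertilization (hpf), and the 3 libraries of 96 hpf were set against the 3 of 97 hpf and the 3 of 98 hpf. These 9 libraries were chosen by their labels, as the untreated columns of those ages, out of 54 libraries in 18 groups. The study was about lethal cold, and these larvae were its untreated controls. All 9 came from whole larvae of the AB strain, a wild-type laboratory line, kept at 28 °C in E3 medium without any treatment, so the groups differed by age and by the hour at which they were collected. The study's methods place gamete collection in the morning, but the exact hour at which larvae were collected, the lighting schedule and whether the 3 libraries of a group came from separate clutches or dishes were not given in the sources used here. Age and time of day cannot be told apart in this design. The p-values below set a difference against the spread between libraries of a group, estimated over all 54 libraries. The study's methods speak of biological replicates in a group but do not say what separated them. This spread may therefore still be technical in part.

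Vertebrate cells keep a daily clock in which CLOCK and BMAL proteins switch on period (per) and cryptochrome (cry) genes, whose products then shut the activators off. Rev-erb (nr1d) and ROR factors form a second loop, and PAR bZIP factors (tef, dbp, hlf) and their rival nfil3 act on a promoter element called the D-box. In zebrafish the clocks of most tissues are set directly by light, and light is known to raise a small set of genes there, among them per2, cry1a and several photolyase and DNA repair genes.

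Abundance was given in TPM, a length-corrected measure of each gene's part in the library total. It is relative, so that a strong change of abundant genes shifts all others, and in whole larvae fewer cells of a type and less RNA per cell cannot be told apart. Each library listed between 23530 and 23790 genes at 1 TPM or more, and Pearson correlations of log values across genes were 0.973 to 0.979 within the groups and 0.971 to 0.977 between them. No 2 libraries were identical. Sequencing depth cannot be read from TPM, so the precision of a value rests on the spread between libraries. Defining markers of skeletal muscle, liver, lens, photoreceptors, neurons, blood, epidermis, cartilage and gut were found in every group as whole larvae should have them. Of the tested members of these lists, 0 were listed at 0 throughout a group. Members were tested only if at 1 TPM or more in every library of at least 1 group, which favours this count.

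A gene was called when limma, fitted to log2(TPM + 1), gave a fold of at least 1.5 with an adjusted p of at most 0.05 over 25387 genes. Few genes met both limits. With 97 and 98 hpf pooled against 96 hpf, 32 genes were higher (0.126% of those tested) and 12 were lower (0.0473%). At 97 hpf alone 44 were higher (0.173%) and 17 lower (0.067%), and at 98 hpf 34 were higher (0.134%) and 18 lower (0.0709%). These comparisons share the 96 hpf libraries and are not independent of each other. The direct comparison of 98 with 97 hpf, which does not use them, called 2 genes higher (0.00788%) and 29 lower (0.114%). In 38 of the 44 genes called with both later ages together, the 3 early libraries did not overlap the 6 later ones, as in 6.18% of all genes tested, and the calling itself favours such genes. Of the 32 called higher, 20 were also called at 97 hpf and 22 at 98 hpf, 13 at both. The median log2 change over all genes lay between -0.01 and 0.00 in each comparison. Leaving out each library in turn gave 28 to 43 higher and 8 to 14 lower with both ages pooled. The counts of lower genes were less steady, at 2 without the second 96 hpf library for 97 hpf and at 56 without the third 98 hpf library for 98 hpf. A fit to these 9 libraries alone, in place of all 54, called 18 higher and 7 lower, and 2 higher and 4 lower, in place of 29, from 97 to 98 hpf.

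**Figure D1:**
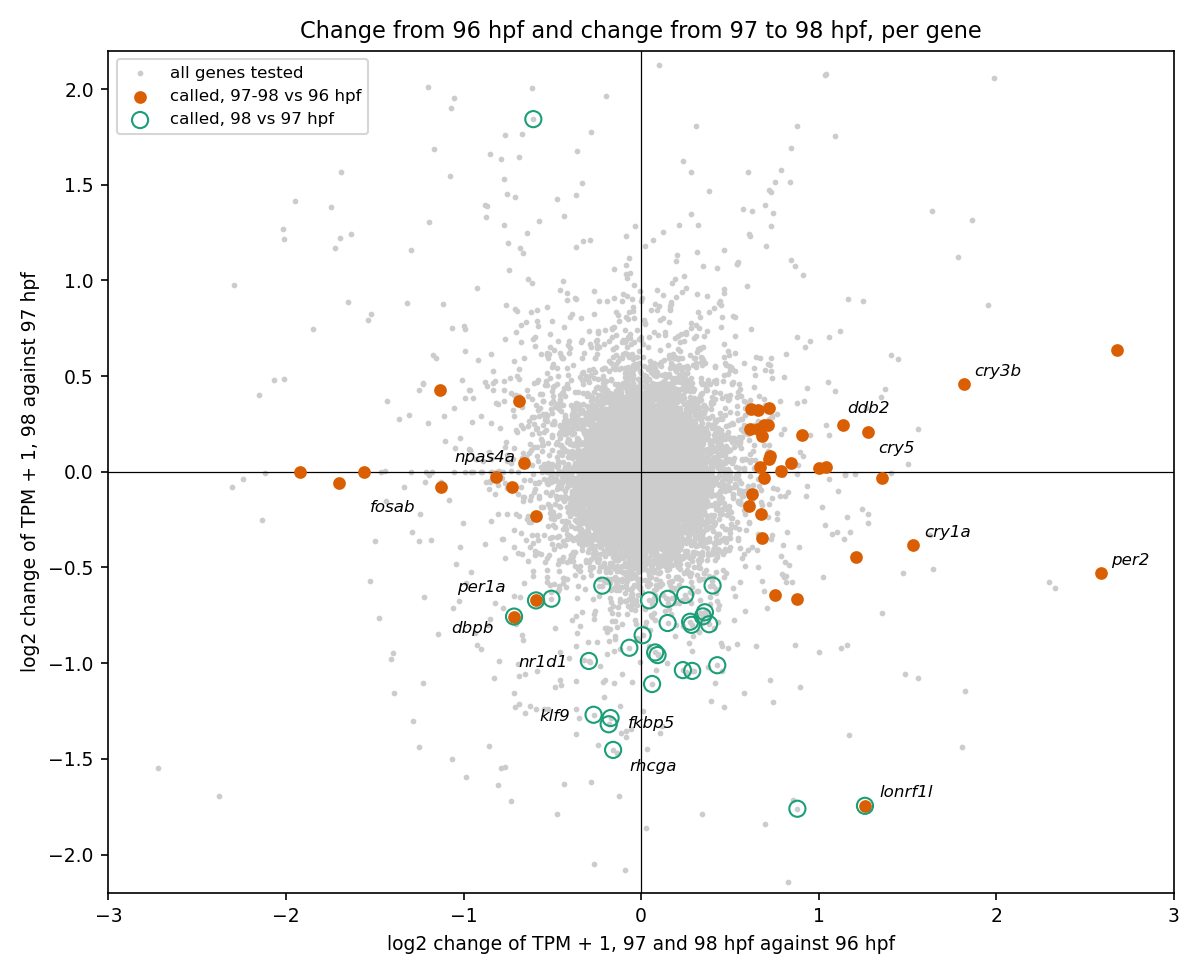
Each point is a gene. The x axis is the log2 change of TPM + 1 of 97 and 98 hpf together against 96 hpf, and the y axis is the log2 change of 98 against 97 hpf. Filled points were called on the first comparison and open circles on the second, and 26 genes lie outside the axes. The genes called on the first comparison spread along the x axis, with per2 at 2.59, while 29 of the 31 circles lie below 0 on the y axis.

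Among the largest rises were those of 2 negative regulators of the clock. per2 (ENSDARG00000034503) was at 2.14, 2.18 and 2.41 TPM at 96 hpf, at 23.5, 22.5 and 21.3 at 97 hpf, and at 16.1, 13.8 and 15.9 at 98 hpf. The lowest later library was thus several times the highest early one, and the 97 hpf libraries all exceeded those of 98 hpf. Its mean rose 10.0-fold by 97 hpf and stood 6.81-fold above the start at 98 hpf, a log2 change of 2.59 ± 0.08 (SE) over both ages with an adjusted p of 3.59e-25. cry1a (ENSDARG00000045768), the cryptochrome known to be raised by light in zebrafish, was at 9.66, 10.1 and 9.37 TPM at 96 hpf, at 34.5, 35.1 and 33.7 at 97 hpf, and at 25.9, 24.9 and 27.8 at 98 hpf. Its libraries were ordered in the same way, without overlap, and the log2 change was 1.53 ± 0.08 (adjusted p = 1.41e-17). From 97 to 98 hpf per2 then changed by -0.53 ± 0.09 (adjusted p = 0.00194) and cry1a by -0.38 ± 0.09 (adjusted p = 0.039) on the log2 scale, both short of the 1.5-fold limit.

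Other members of the family that holds the cryptochromes and photolyases also rose. cry3b, a cryptochrome gene, was at 7.65, 6.64 and 6.83 TPM at 96 hpf, at 26.9, 20.7 and 22.3 at 97 hpf, and at 25.7, 38.0 and 34.1 at 98 hpf, a log2 change of 1.82 ± 0.10 (adjusted p = 4.79e-17). Here the early libraries lay below all later ones, and 97 and 98 hpf overlapped. Its relative cry3a was at 99.3, 106 and 104 TPM, then 137, 133 and 142, then 158, 171 and 168, 3 ranges that did not overlap, and it was called at 98 hpf (log2 change 0.68 ± 0.08, adjusted p = 6.76e-07). Among 14 tested genes of the clock's negative limb (period, cryptochrome, ciart and bhlhe genes), 3 were called higher and 1 lower with both ages pooled, and 4 and 1 at 98 hpf. Over all genes the shares were 0.126% and 0.0473% with both ages pooled, and 0.134% and 0.0709% at 98 hpf. cry2, which also belongs there, was at 9.10, 13.4 and 9.01 TPM on average at 96, 97 and 98 hpf, and its log2 change of 0.51 ± 0.10 at 97 hpf (adjusted p = 0.00356) was below the fold limit.

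cry5, which encodes the 6-4 photolyase, an enzyme that repairs ultraviolet damage of DNA with the energy of light, was a gene of low level. Its values were 0.853, 0.696 and 0.729 TPM at 96 hpf, 3.42, 2.85 and 2.65 at 97 hpf and 4.24, 3.33 and 3.22 at 98 hpf, with no overlap between early and later larvae (log2 change 1.28 ± 0.10, adjusted p = 8.97e-12). cry-dash, a photolyase-like gene, was at 6.89, 7.91 and 6.80 TPM, then 11.4, 10.7 and 12.0, then 15.3, 12.7 and 13, so that the 3 ages formed 3 separate ranges. Its log2 change was 0.72 ± 0.07 over both ages (adjusted p = 2.03e-08). ddb2, whose product finds ultraviolet lesions for nucleotide excision repair, was at 3.33, 3.13 and 3.66 TPM, then 7.79, 7.94 and 7.75, then 9.68, 7.94 and 10.9. The early libraries were again below all others, and the log2 change was 1.14 ± 0.09 (adjusted p = 6.07e-12).

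These 3 were the members called among 21 tested genes of photolyases and nucleotide excision repair, in the pooled comparison and at each age. Over all genes 0.126% were called higher in the pooled comparison. The call of cry-dash at 97 hpf was lost without the first or the third 96 hpf or the third 97 hpf library, where the change was 0.56 to 0.57 and below the fold limit. The median log2 change of that list, 0.05, was close to that of all genes. Of its other members, ercc6, which acts in transcription-coupled repair, was at 6.40, 5.48 and 6.52 TPM at 96 hpf against 8.68 to 9.90 in the 6 later libraries (log2 change 0.53 ± 0.07, adjusted p = 1.04e-06), and xpc, the damage sensor of global repair, was at 4.32, 4.38 and 3.99 against 5.57 to 6.59 (0.45 ± 0.08, adjusted p = 0.00113). Neither pair of ranges overlapped, but both changes stayed below the fold limit.

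Of 26 tested genes on a list of light-response genes, which shares 17 of its symbols with the clock and D-box lists, 9 were called higher and 1 lower over both ages, 10 and 0 at 97 hpf, and 8 and 2 at 98 hpf. Over all genes, 0.126%, 0.173% and 0.134% were called higher in these comparisons and 0.0473%, 0.067% and 0.0709% lower. The median log2 change of the list was 0.38 at 97 hpf and 0.03 at 98 hpf, against 0.00 and -0.01 over all genes. Some of its members were placed there with earlier results of these larvae known, so the counts are a description of the list. Besides the genes above, lonrf1, a ring finger gene, was at 6.32, 6.27 and 5.58 TPM at 96 hpf and at 12.5 to 13.7 in all 6 later libraries, a narrow and separate range (1.00 ± 0.06 on the log2 scale, adjusted p = 6.74e-16). tefa, a PAR bZIP activator that binds the D-box, was at 35.3, 32.3 and 31.5 TPM and then at 54 to 63.3 (0.79 ± 0.06, adjusted p = 1.38e-11). Both kept their level from 97 to 98 hpf, with log2 changes of 0.02 ± 0.07 and 0.00 ± 0.07.

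lonrf1l, a relative of lonrf1, moved up and down within the 2 h. It was at 7.28, 8.39 and 4.77 TPM at 96 hpf, at 34.5, 28.5 and 35.1 at 97 hpf and at 8.70, 9.16 and 9.21 at 98 hpf. The 97 hpf libraries stood apart, and those of 98 hpf lay just above the early ones. The log2 change was 2.13 ± 0.16 from 96 to 97 hpf (adjusted p = 2.53e-12) and -1.75 ± 0.16 from 97 to 98 hpf (adjusted p = 6.13e-09). The same course was seen at a lower level in nfil3-6, a gene of the D-box repressor family, at 1.94, 1.94 and 1.37 TPM, then 3.24, 3.53 and 3.83, then 1.64, 1.54 and 2.00. It was called higher at 97 hpf (0.73 ± 0.13, adjusted p = 0.000976) and lower from 97 to 98 hpf (-0.73 ± 0.13, adjusted p = 0.00172). sik2b, a salt-inducible kinase gene, was at 10.9, 16.4 and 11 TPM on average at the 3 ages. Its 97 hpf change of 0.55 ± 0.08 (adjusted p = 1.35e-05) did not reach the fold limit.

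**Figure D2:**
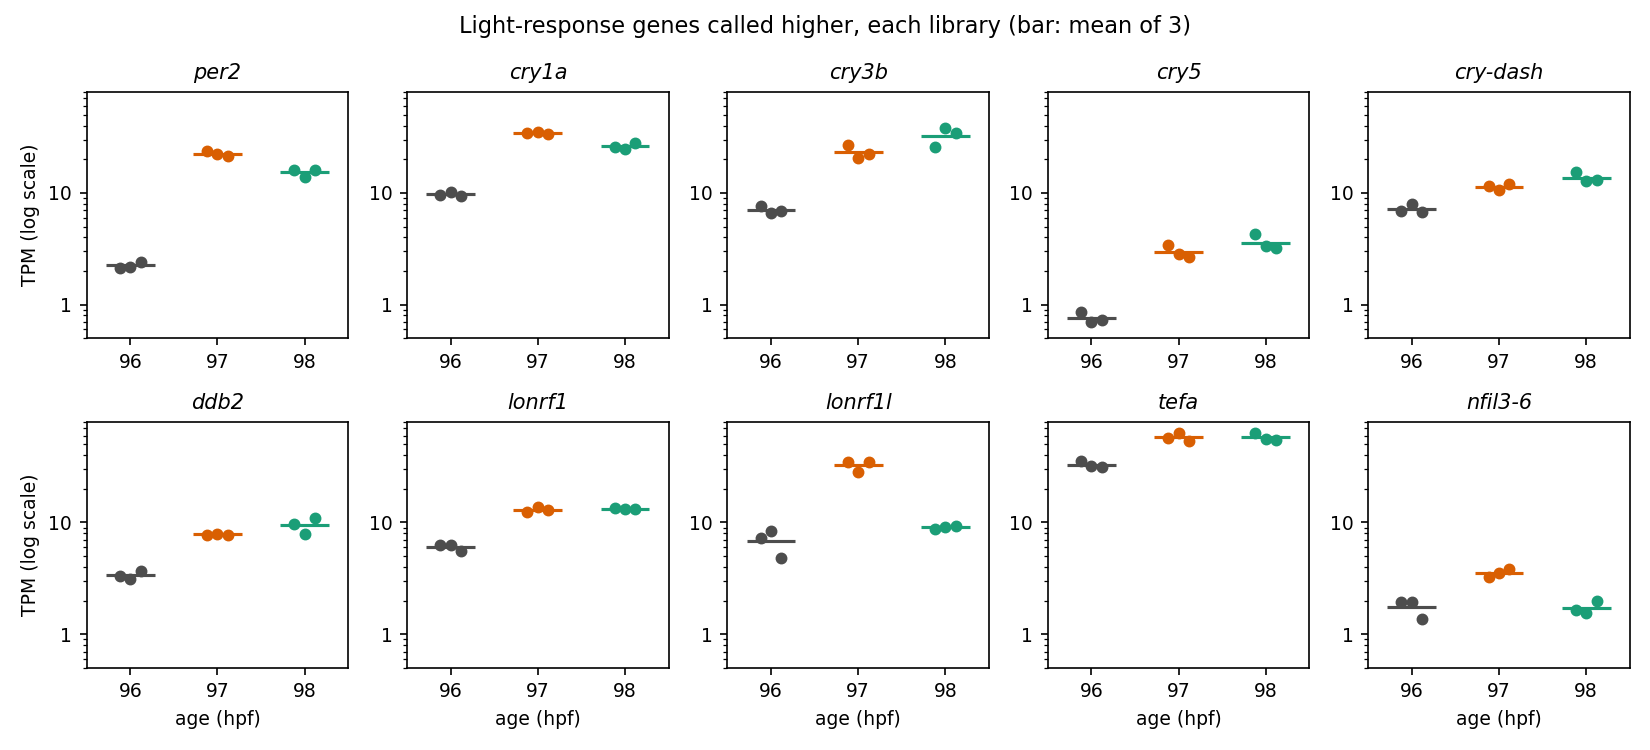
TPM on a log axis in each of the 9 libraries for the 10 light-response genes called higher at 97 hpf, with a bar at the mean of 3. In all 10 the 97 hpf points lie above the 96 hpf points. lonrf1l and nfil3-6 are back near the start at 98 hpf, at means of 9.02 and 1.73 TPM, while the other 8 are still above it.

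Outside these lists, the genes with the largest pooled rises at 5 TPM or more included eevs, which encodes the enzyme that starts synthesis of gadusol, an ultraviolet-absorbing compound of fish. It was at 11.7, 12.0 and 11.8 TPM at 96 hpf and between 23.2 and 30.2 in the 6 later libraries (log2 change 1.04 ± 0.12, adjusted p = 3.36e-07). ptgdsb.1, a prostaglandin D2 synthase gene, was at 69.1, 65.6 and 63.4 TPM, then 104, 96.8 and 95.4, then 129, 109 and 113, in 3 separate ranges (0.69 ± 0.08, adjusted p = 2.4e-07). cbr1, a carbonyl reductase gene, was at 3.39, 3.19 and 3.60 TPM and then at 4.28 to 6.99 (0.66 ± 0.10, adjusted p = 3.94e-05).

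Further named risers were slc25a33, pdk2b and coq10b. slc25a33, a mitochondrial carrier of pyrimidine nucleotides, was at 22.4, 22.8 and 19.7 TPM, then 35.6, 35.5 and 35.7, then 32.4, 32.4 and 29.4, so the ages did not overlap. Its log2 change was 0.61 ± 0.06 (adjusted p = 4.44e-09), and without the third 96 hpf library it was 0.54, below the fold limit (adjusted p = 1.99e-06). pdk2b, a kinase gene whose product holds back pyruvate oxidation, was at 20.0, 18.8 and 17.5 TPM, then 32.1, 42.6 and 48.8, then 26.1, 27.1 and 23.8. Its pooled change was 0.75 ± 0.17 (adjusted p = 0.0137), which without the second or the third 96 hpf library gave adjusted p = 0.0624 or 0.0861. coq10b, a coenzyme Q binding protein gene, was at 21.8, 28.8 and 29.3 TPM and then at 38.1 to 47.9 (0.67 ± 0.15, adjusted p = 0.013), and without the first 96 hpf library the change was 0.54 (adjusted p = 0.165). On a list of 35 FoxO and fasting genes, pdk2b was the 1 gene called with both ages pooled. At 97 hpf 3 of them were called higher, pdk2b, the uncoupling protein gene ucp3 and higd1a, a gene of the respiratory chain. Over all genes 0.126% were called higher with both ages pooled and 0.173% at 97 hpf. higd1a was at 29.0, 26.5 and 24.8 TPM, then at 43.9, 45.0 and 41.5 at 97 hpf (0.68 ± 0.09, adjusted p = 4.49e-06). For ucp3 (0.93 ± 0.21, adjusted p = 0.0148) the call at 97 hpf was lost without the third 96 hpf library (adjusted p = 0.19) or the second or the third of 97 hpf (0.0578 and 0.135).

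The falls were fewer. fosab, the c-Fos subunit of AP-1 and an immediate early gene, was at 5.14, 5.84 and 6.93 TPM at 96 hpf and between 1.69 and 2.62 in the 6 later libraries, with no overlap. The log2 change was -1.13 ± 0.23 (adjusted p = 0.00479), and without the third 96 hpf library it was -1.03 (adjusted p = 0.0593). npas4a, a neuronal activity-dependent transcription factor gene, was at 2.1, 2.9 and 2.51 TPM and then at 0.801 to 1.2. Its change of -0.82 ± 0.17 (adjusted p = 0.00819) gave adjusted p = 0.0798 without the second and 0.0515 without the third 96 hpf library. These were the 2 called lower among 32 tested immediate early genes, where 0.0473% of all genes were called lower. The median log2 change of the list was -0.13 with 24 of 32 below 0, where 51.4% of all genes were below 0. egr1, another of them, was at 11.8, 13.7 and 13.8 TPM against 8.60 to 10.7 later (-0.41 ± 0.07, adjusted p = 0.00131), and mych was at 21.7 to 30.4 against 17.3 to 20.8 (-0.41 ± 0.08, adjusted p = 0.00519). Both were below the fold limit.

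At 97 hpf the same list had 1 gene called higher and 3 lower, where 0.173% and 0.067% of all genes were. The falls included fosab (adjusted p = 0.0349) and npas4a (adjusted p = 0.041). Both calls were lost when any 1 of the 96 or 97 hpf libraries was left out. The adjusted p was then 0.0525 to 0.161 for fosab and 0.0543 to 0.184 for npas4a. The riser was nr4a3, an orphan nuclear receptor gene, at 5.08, 6.49 and 5.00 TPM, then 11.8, 9.04 and 7.81, then 4.46, 4.85 and 5.73. Its change at 97 hpf was 0.68 ± 0.15 (adjusted p = 0.0132). Leaving out 1 library at a time, the call was lost without the first 96 hpf library (0.64, adjusted p = 0.0741), the third (0.63, adjusted p = 0.105) or the first 97 hpf library (0.54, adjusted p = 0.145). klf2a, a Kruppel-like factor gene that the table holds under 2 IDs, was lower under both, with means of 18.1, 10.9 and 13.6 TPM for the first ID and 17.1, 10.6 and 15 for the second at 96, 97 and 98 hpf. The first was called at 97 hpf (-0.68 ± 0.16, adjusted p = 0.0325), as was the sum of both, but not when any 1 of the 96 hpf libraries or the second or the third of 97 hpf was left out (adjusted p between 0.0632 and 0.157). crema, a gene of the cAMP response, was at 12.0, 13.4 and 12.4 TPM at 96 hpf and at 21.1, 21.7 and 18.4 at 97 hpf, 2 separate ranges, and was called there (0.65 ± 0.11, adjusted p = 0.00102).

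Several clock genes fell between 97 and 98 hpf. dbpb, a PAR bZIP gene, was at 14.0, 13.9 and 11.8 TPM at 96 hpf, 10.5, 11 and 9.27 at 97 hpf and 4.93, 5.57 and 6.52 at 98 hpf, 3 ranges in falling order. Its log2 change was -0.76 ± 0.11 from 97 to 98 hpf (adjusted p = 0.000182) and -0.72 ± 0.10 over both ages against 96 hpf (adjusted p = 9.49e-06). nr1d1, which encodes Rev-erb alpha, a repressor of the clock activators, was at 14.0, 18.8 and 14.4 TPM, then 18.5, 18.3 and 17.5, then 8.67, 8.34 and 8.85. The 98 hpf libraries lay below all others, and the last step was -0.99 ± 0.14 (adjusted p = 0.000129). Its relative nr1d2a was at 46.8, 41.5 and 35.0 TPM, then 36.1, 35.9 and 36.2, then 23.0, 21.2 and 23.0 (-0.66 ± 0.12 from 97 to 98 hpf, adjusted p = 0.00172). per1a, another period gene, was at 6.96, 6.24 and 4.74 TPM, then 5.36, 4.23 and 4.84, then 3.24, 2.08 and 2.68. Its last step of -0.67 ± 0.14 (adjusted p = 0.0136) was not called without the first or the third 97 hpf library (adjusted p = 0.116 and 0.0657) or the second of 98 hpf (0.13). Against 96 hpf, per1a was called with both ages pooled (-0.59 ± 0.12, adjusted p = 0.00716), a call lost without any of 4 libraries, where the change was between -0.49 and -0.56. That pooled call lay at the fold limit and was also lost after scaling by the median of ratios (-0.581) or quantile normalization (-0.583). In the limma fit to the 18 untreated libraries it gave adjusted p = 0.0554.

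Of the 16 tested genes of the activator and Rev-erb/ROR loop, 2 were called lower from 97 to 98 hpf, where 0.114% of all genes were. But all 16 had a negative log2 change, with a median of -0.27, where 52.9% of all genes were below 0 with a median of -0.01. Likewise 12 of the 14 negative limb genes, without cry3a and cry3b, were below 0 (median -0.31, 1 called lower), and so were 8 of 9 PAR bZIP and nfil3 genes (median -0.37, 2 called lower). per1b, at 18.4, 18 and 12.4 TPM on average, changed by -0.51 ± 0.09 (adjusted p = 0.0016), and bhlhe40, a repressor that competes with the clock activators, was at 34.1, 43.1 and 31.6 and changed by -0.44 ± 0.08 (adjusted p = 0.00182). At 98 hpf against 96 hpf, 13 of the 16 were below 0 (median -0.13), as were 8 of the 9 (median -0.23). Over all genes 52.2% were below 0 there, with a median of -0.01. The negative limb was near that share, with 7 of the 14 below 0 (median -0.01). These comparisons share libraries, so their values are only set side by side. The activator clocka itself was at 4.97, 4.83 and 3.92 TPM on average (-0.25 ± 0.09 from 97 to 98 hpf, adjusted p = 0.262).

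Outside the clock lists, other genes were also called lower at 98 than at 97 hpf. fkbp5, a co-chaperone gene that is a standard target of the glucocorticoid receptor, was at 68.8, 42.0 and 26.7 TPM at 96 hpf, 63.4, 56.3 and 59.6 at 97 hpf and 31.2, 20.3 and 20.0 at 98 hpf. Its early libraries covered nearly the whole range, and the last step was -1.32 ± 0.26 (adjusted p = 0.00513), or -1.22 without the second 98 hpf library (adjusted p = 0.0512). klf9, another glucocorticoid target, was at 17.3, 17.3 and 12.8 TPM, then 19.1, 18.5 and 24.4, then 7.41, 8.75 and 7.67, with all 98 hpf libraries below the rest (-1.27 ± 0.20, adjusted p = 0.00071). Of 13 glucocorticoid genes tested, these 2 and per1a, also counted among the clock genes, were called lower from 97 to 98 hpf by limma. Over all genes 0.114% were. In the list 0 were called higher (0 also at an unadjusted p under 0.05). Its median log2 change was -0.24 with 10 of 13 below 0, where all genes had a median of -0.01 and 52.9% below 0.

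rhcga, an ammonia transporter gene of the Rhesus family, was at 56.4, 45.8 and 20.8 TPM, then 65.0, 43.4 and 64.0, then 24.7, 18 and 18 (-1.45 ± 0.27 from 97 to 98 hpf, adjusted p = 0.00346). dhrs13a.2, a short-chain dehydrogenase/reductase gene, was at 41.2, 31.0 and 22.2 TPM, then 48.8, 42.8 and 37.2, then 18.5, 16.3 and 16.0 (-1.29 ± 0.15, adjusted p = 3.12e-06). pnp5a, a purine nucleoside phosphorylase gene, was at 45.4, 33.7 and 29.6 TPM, then 57.4, 55.9 and 52.4, then 28.5, 22.8 and 24.1 (-1.11 ± 0.11, adjusted p = 7.38e-08). In all 3 the 97 and 98 hpf libraries were separate, and in all 3 the first 96 hpf library was the highest and the third the lowest of its group. ucp3 was at 9.35, 7.41 and 4.71 TPM, then 11.6, 14.2 and 17.1, then 6.68, 5.74 and 7.20. Its fall of -1.01 ± 0.21 (adjusted p = 0.00831) gave adjusted p = 0.102 without the third 97 hpf library and 0.0698 without the second of 98 hpf.

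A further 2 genes fell outside the naming rule and were picked after their values were seen, since both encode enzymes that set fructose 2,6-bisphosphate, a switch of glycolysis. pfkfb4b was at 59.5, 43.2 and 30.4 TPM at 96 hpf, at 63.1, 48.6 and 58.9 at 97 hpf and at 29.5, 30.7 and 28.1 at 98 hpf, and fell by 0.92 on the log2 scale in the last hour (SE 0.17, adjusted p = 0.00302). pfkfb3 was at 13.3, 12 and 13, then 23.2, 14.6 and 20.7, then 8.54, 9.02 and 11 TPM (-0.94 ± 0.21, adjusted p = 0.0198). Its call was lost without any of the first and the third 97 hpf or the first and second 98 hpf libraries, with adjusted p between 0.0849 and 0.167.

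Many of these calls depended on fitting all 54 libraries. A fit to the 9 alone has fewer degrees of freedom and its own estimate of the spread. With both ages pooled, its SE was smaller in pdk2b (0.12 against 0.17) and larger in cbr1 (0.11 against 0.10). Which of the 2 lost the calls was not tested. In the fit to the 9 libraries alone, the step from 97 to 98 hpf was still called in lonrf1l, nr1d1 and klf9 (adjusted p = 0.029, 0.0376 and 0.0473). It was no longer called in dbpb, nfil3-6, nr1d2a, per1a, nr4a3, fkbp5, rhcga, dhrs13a.2, pnp5a, ucp3, pfkfb4b and pfkfb3 (adjusted p between 0.107 in pnp5a and 0.389 in per1a). Calls against 96 hpf were lost in that fit as well. At 97 hpf they included crema (adjusted p = 0.0599), cry-dash, higd1a and klf2a (0.0904 each), npas4a (0.0964) and nfil3-6 (0.122). nr4a3 (0.282) and ucp3 (0.284) were also among them. With both ages pooled they included pdk2b (0.082), cbr1 (0.113) and per1a (0.229), while per2, cry1a, cry3b, cry5, ddb2 and lonrf1 kept their calls.

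**Figure D3:**
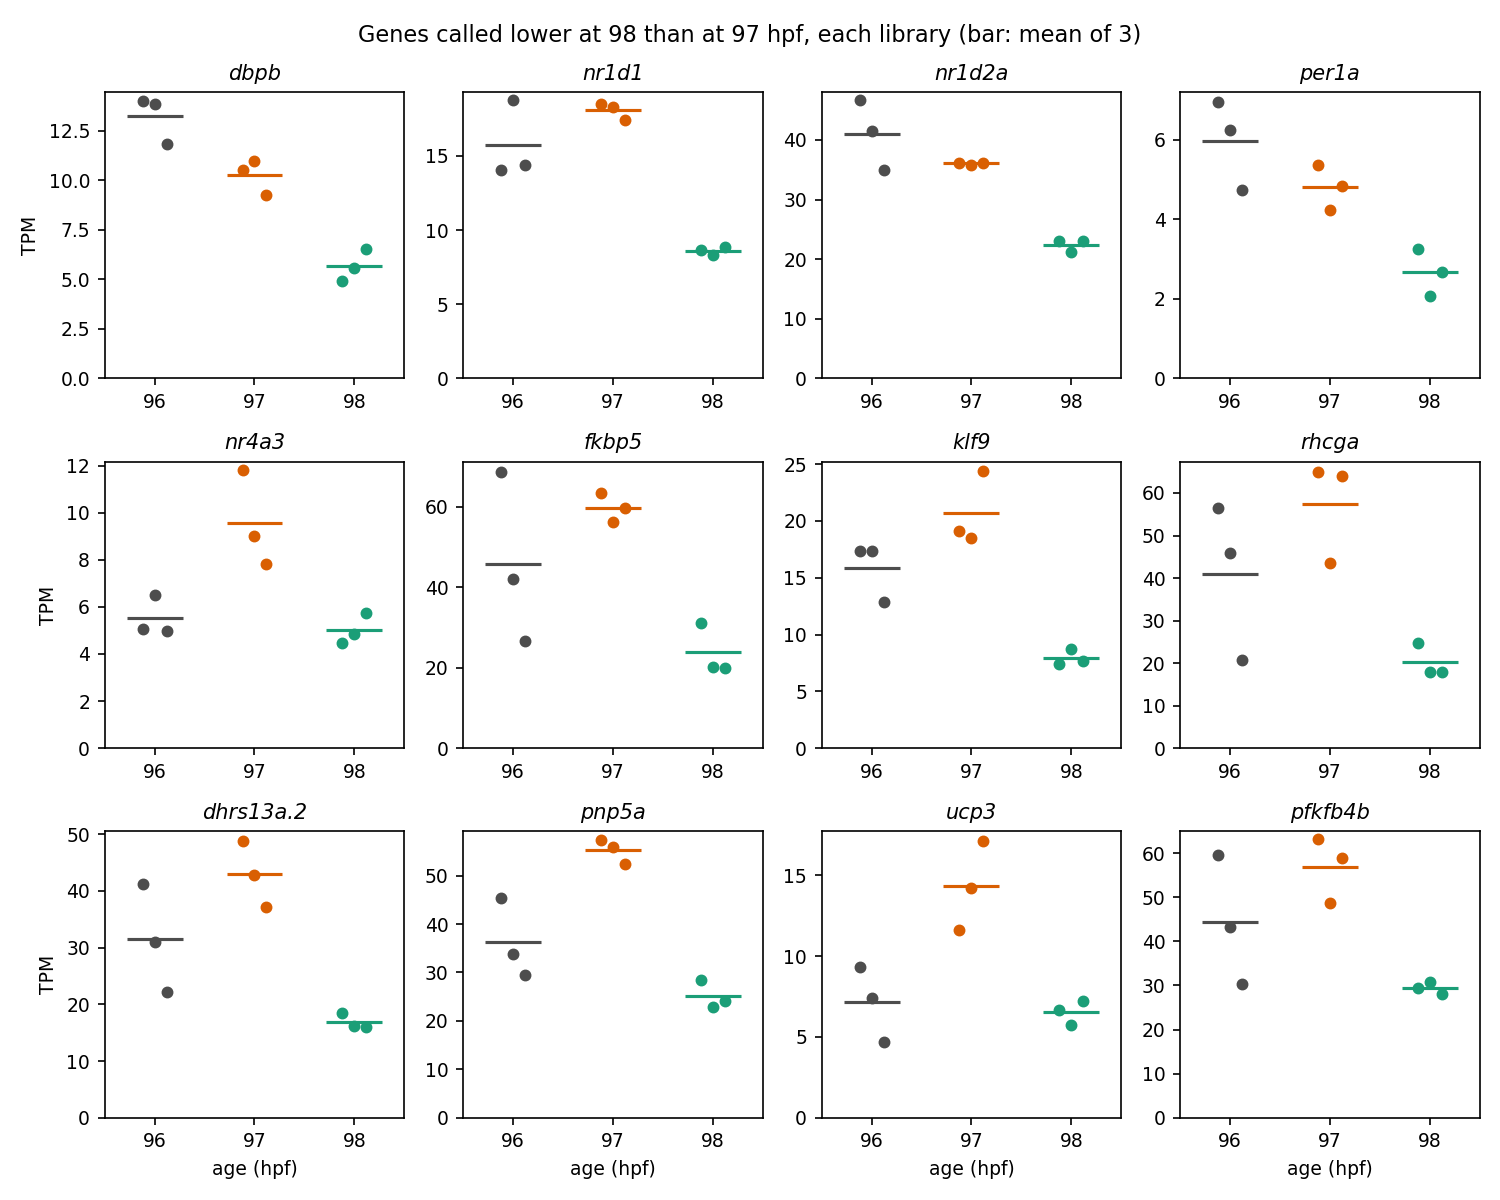
TPM in each library for 12 genes called lower at 98 than at 97 hpf, with a bar at the mean of 3 and the axis starting at 0. In every panel the 98 hpf points lie below the 97 hpf points. The 96 hpf points of fkbp5, rhcga, dhrs13a.2 and pfkfb4b are spread widely, from 26.7 to 68.8 TPM in fkbp5.

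In 14 lists limma called 0 of 382 genes in each of the 4 comparisons, although 92 of them had an unadjusted p under 0.05 in the pooled one (24.1%, against 13.7% of all genes tested). Over all genes 0.00788% to 0.173% were called higher and 0.0473% to 0.114% lower in the 4 comparisons. With shares so small, 0 of 382 says little about these genes. These lists were redox, melatonin, photoreceptor, non-visual opsin, DNA replication, mitosis and chaperone genes and the markers of liver, muscle, lens, neurons, blood, epidermis and cartilage. Among 26 tested markers of exocrine pancreas and intestine 1 was called higher at 98 against 96 hpf, where 0.134% of all genes were. In the other comparisons 0 were called. The 1 gene was chia.2, a chitinase gene of the gut, at 43.2, 63.1 and 55.2 TPM at 96 hpf and at 136, 71.0 and 78.5 at 98 hpf (0.77 ± 0.19, adjusted p = 0.0278). The first 98 hpf library set this value, and without it the change was 0.48 (adjusted p = 0.334). Without the first or the third 96 hpf library adjusted p was 0.186 or 0.0651.

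Some of the lists without calls leaned one way by small amounts. In the pooled comparison 28 of 32 chaperone genes were above 0 with a median log2 change of 0.12, as were 25 of 27 epidermal markers with a median of 0.09. Below 0 were 27 of 30 cartilage and matrix genes (median -0.10), 18 of 22 lens markers (median -0.09) and 29 of 37 DNA replication genes (median -0.09). Over all genes 48.5% were above 0 and 51.4% below. The summed level of the matrix genes was 7070 to 7585 TPM at 96 hpf, 6199 to 6938 at 97 hpf and 6336 to 6613 at 98 hpf, and that of the epidermal markers was 15062 to 17225, 16902 to 17908 and 16540 to 17771 TPM. The sums of muscle markers, 97781 to 99896 TPM at 96 hpf, were 97498 to 100755 at 97 hpf and 101136 to 102509 at 98 hpf. These muscle sums include the major ID of the parvalbumin gene pvalb2, at means of 12104, 14221 and 14248 TPM at 96, 97 and 98 hpf. Its reads can be split with another ID of the same symbol. How far this gene set the muscle sums was not tested. Any part of these shifts in the changes of other genes was not tested.

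**Figure D4:**
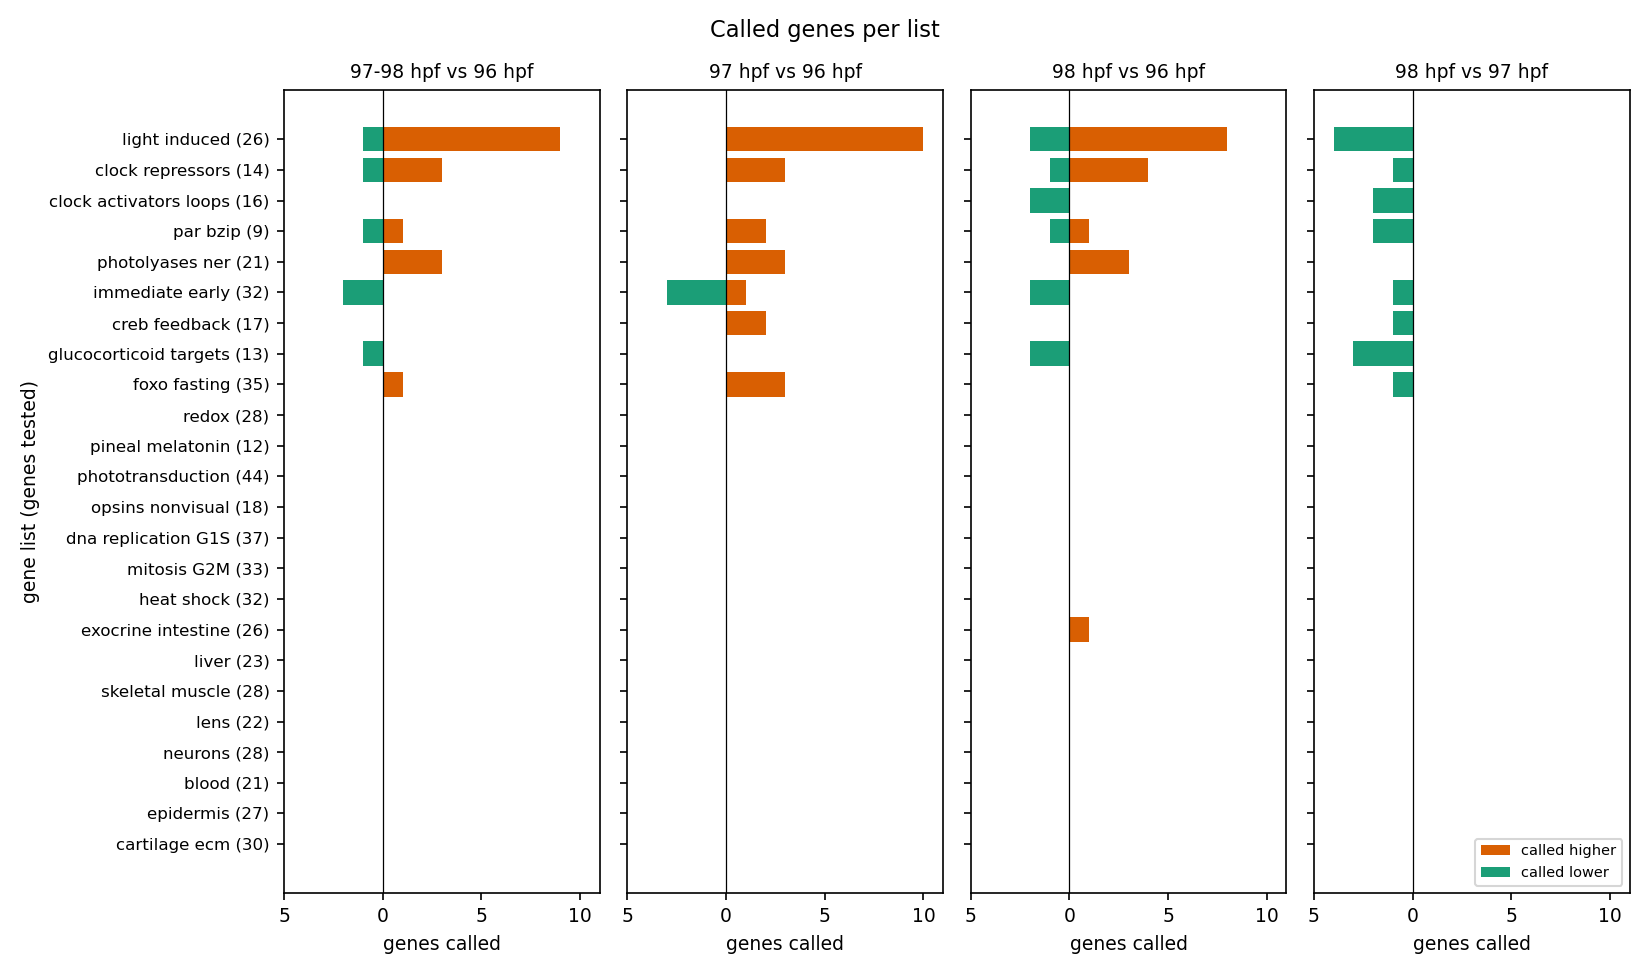
Number of genes called higher (right of 0) and lower (left of 0) in each of the 24 lists, with the number of genes tested in brackets, in 1 panel for each comparison. Calls sit in the light-response, clock, repair, immediate early, cAMP, glucocorticoid and fasting lists and in 1 gut gene. In the last panel all calls are on the lower side.

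The course of the same genes at later ages and in the cold is given as values, without a test. At 102 hpf per2 stood at 1.79 ± 0.144 TPM (SD, n = 3), cry1a at 5.31 ± 0.286, ddb2 at 3.48 ± 0.817, lonrf1 at 5.77 ± 0.528, cry5 at 0.604 ± 0.189 and tefa at 22.3 ± 1.15, all near or below their 96 hpf means. Of the 32 genes called higher, 16 had all 3 libraries of 102 hpf below the lowest of the 6 libraries of 97 and 98 hpf. The choice of genes that were high in those 6 favours such a count, and the share over all genes was not computed. cry3b followed another course, at 15.1 TPM at 102 hpf, 34.5 at 108 hpf and 58.1 at 132 hpf. Of the 12 genes called lower, 0 had a mean log value at 102 hpf nearer to that of 96 hpf than to that of the 6. In 0 of them did all 3 libraries of 102 hpf lie above the 6. These genes were chosen as low in the 6, which favours both counts, and the shares over all genes were not computed. At 102 hpf per1a was at 1.32 and dbpb at 4.33 TPM.

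Larvae that spent the same 1 or 2 h at 10 °C were of the same age as those at 97 and 98 hpf. In them per2 stood at 2.34 ± 0.114 and 2.35 ± 0.125 TPM after 1 and 2 h, cry1a at 9.41 ± 0.928 and 8.45 ± 0.669, cry5 at 0.715 ± 0.0333 and 0.582 ± 0.0991, ddb2 at 3.75 ± 0.235 and 4.06 ± 0.26, and lonrf1l at 6.21 ± 1.54 and 5.66 ± 0.109. These levels were near those of 96 hpf and below those of untreated larvae of the same age. At each of the 2 times, 24 of the 32 genes called higher had all 3 cold libraries below the 6 untreated ones. These genes were chosen as high in those 6, which favours this count too, and the share over all genes was not computed. A cold group set against untreated larvae of its own age and one set against 96 hpf larvae therefore give different values for these genes. fosab and npas4a, which fell at 28 °C, were at 47.7 ± 5.82 and 101.5 ± 6.78 TPM and at 5.47 ± 1.27 and 10.9 ± 1.42 in the cold.

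**Figure D5:**
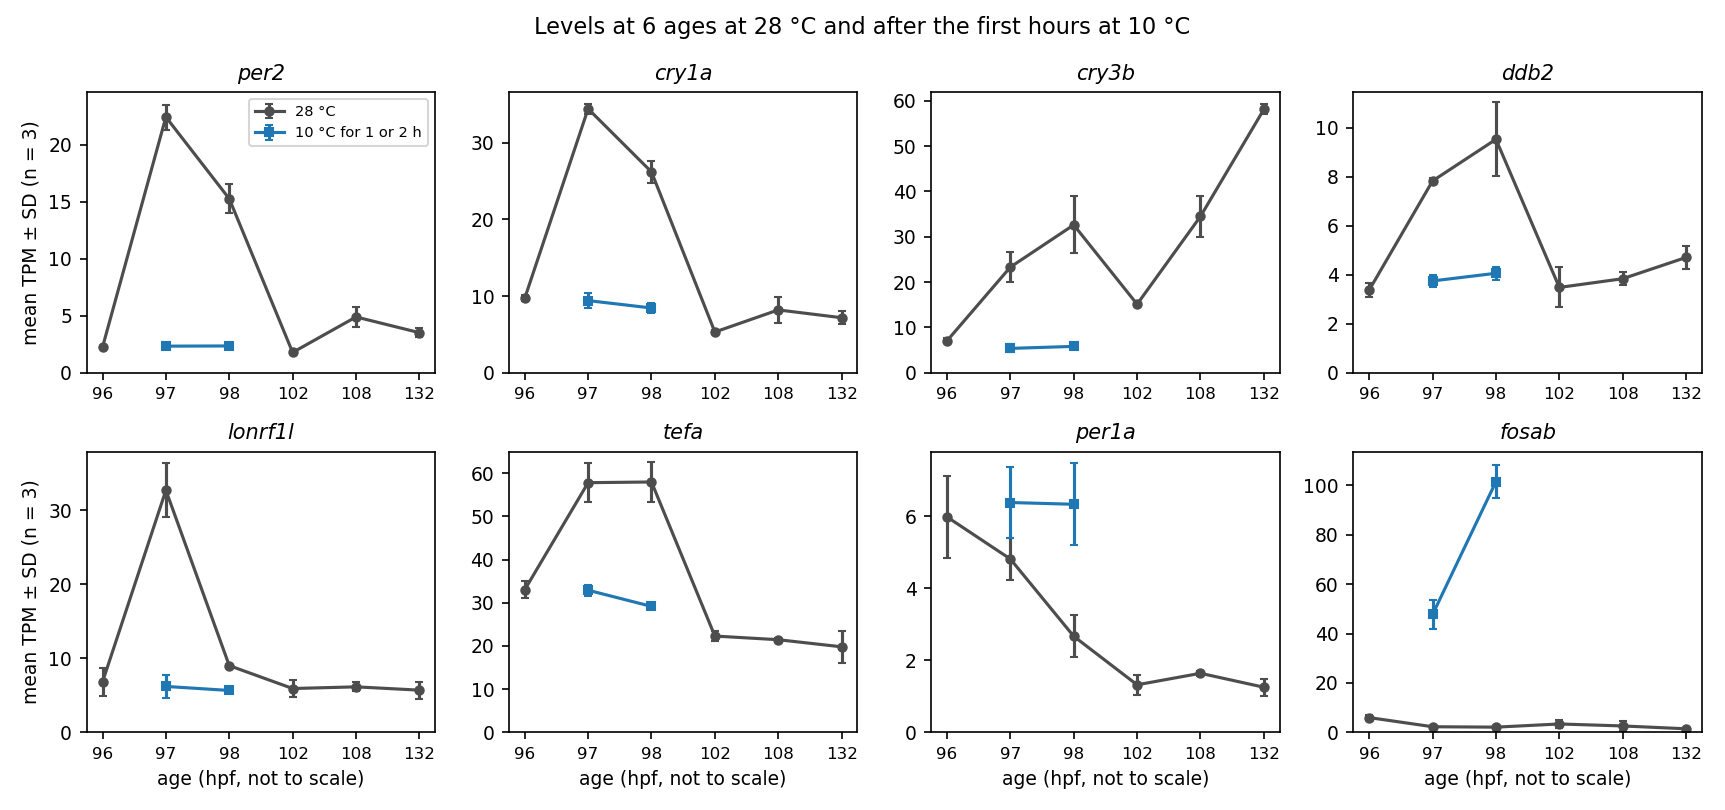
Mean TPM with SD (n = 3) of 8 genes at 6 ages at 28 °C (circles) and after 1 or 2 h at 10 °C (squares, drawn at the matching age), with ages evenly spaced. per2, cry1a, ddb2, lonrf1l and tefa peak at 97 or 98 hpf and are low again at 102 hpf, and their squares lie near the 96 hpf level. The squares of fosab rise to 101.5 TPM.

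A part of the calls concerned gene IDs that share a symbol with another ID, between which reads can be split. Of the 44 genes called in the pooled comparison 12 were of this kind, and 5 of them were still called after the IDs of a symbol were summed. Such IDs were common among all genes too, since 2392 symbols were each held by more than 1 of the 25387 IDs tested. The share of such IDs over all genes was not computed, so the 12 are not read as a trait of the calls. The largest named fall, in the muscle parvalbumin gene pvalb2, was of that kind. Its minor ID was at 1201, 1098 and 1531 TPM at 96 hpf and at 281 to 485 later (-1.70 ± 0.35, adjusted p = 0.00607), while the major ID was at means of 12104, 14221 and 14248 TPM, and the sum changed by 0.13 (adjusted p = 0.234). Without the third 96 hpf library the minor ID gave adjusted p = 0.0655. The minor ID of rpl30, a ribosomal protein gene, fell from 643 to 398 and 412 TPM on average, and the sum changed by -0.11, below the fold limit, as was the minor ID (-0.58) without the first 96 hpf library. tomm22, a gene of the mitochondrial import pore, was listed at 0 in all 3 libraries of 97 hpf under an ID that was at 24.3 and 28.0 TPM at 96 and 98 hpf, and the other ID was at 72.4, 81.1 and 76.9. Its calls at 97 hpf (adjusted p = 0.0377) and from 97 to 98 hpf (0.0346) were lost without any 1 library. An ID of the splicing factor gene hnrnpdl, named after its values were seen, had a larger fitted rise than per2 (2.68 on the log2 scale, adjusted p = 0.00352) at means of 5.50, 14.2 and 23.5 TPM, and the sum of its 3 IDs was at 512, 506 and 476. Without the first or the third 96 hpf library its call was lost. tefa was of the opposite kind, since its second ID rose as well, from a mean of 1.68 TPM to 13.9 and 8.50, and the sum was at 34.7, 71.7 and 66.5. krt18a.2 and h3f3c, a keratin and an H3.3 histone gene that the naming rule also picked, belong to families of near-identical copies. krt18a.2 was at 3.55 to 5.48 TPM early and 5.98 to 9.78 later (0.69 ± 0.16, adjusted p = 0.0199) and h3f3c at 273 to 397 and 175 to 239 (-0.72 ± 0.19, adjusted p = 0.0479), and both calls were lost under several alternatives. Without the first or the third 96 hpf or the first 98 hpf library krt18a.2 gave adjusted p = 0.0724 to 0.186, and h3f3c gave 0.0593 to 0.254 without any 1 of 7 libraries. The values of these IDs are uncertain as measures of their genes.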

How the data were processed

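Whole-larva RNA of 54 libraries had been sequenced. Per the labels and the study's methods, the authors quantified reads against zebrafish cDNA from Ensembl with Salmon 0.13.1, with its bias corrections on, and tximport turned transcript values into gene values. The deposited values are TPM, 1 column per library, with sums of 998493 to 999530. Coordinates and sequences were not used here, and a planned description of promoter motifs was not analysed here.

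Libraries were assigned by their labels. A linear model of log2(TPM + 1) with 1 mean for each of the 18 groups was fitted across all 54 libraries in limma 3.58.1 and R 4.3.3 (36 residual degrees of freedom, eBayes with a trend), so the spread is shared with the cold groups and assumed equal to theirs. The 25387 of 30097 genes at 1 TPM or more in every library of at least 1 group were kept. Fold changes are on that log scale, which understates those of low genes. Adjustment was by Benjamini-Hochberg over all genes tested in each comparison, and a call needed a fold of 1.5 and an adjusted p of 0.05. The study's authors called genes on counts with another tool.

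The lists (24, with 561 of 601 symbols tested, 1 ID per symbol) and the comparisons were chosen with earlier results of these data known, as were some members of the light-response list. Named genes were the 15 largest rises and 10 largest falls over both ages (at least 5 TPM, no overlap, no clone name; only 5 falls met this), the 6 largest in each direction from 97 to 98 hpf under the same limits, called list members, and members of the clock, light, repair and immediate early lists. Same-numbered libraries of different ages did not deviate together (9 correlations of -0.06 to 0.07), so numbers were not taken as pairs. Alternatives changed the pseudocount, filter, scaling, libraries in the fit, trend, limits, block and single libraries. Summing IDs of a symbol was chosen after seeing the data.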

Additional observations from a re-analysis of the deposited data

Results flagged for a closer look

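For 16 named genes the change from 96 hpf differed between 97 and 98 hpf, by the test of 98 against 97 hpf given above. Each value here is the log2 change at 98 hpf minus that at 97 hpf. Among the light-response, clock and D-box genes the difference was -1.75 in lonrf1l, -0.99 in nr1d1, -0.76 in dbpb, -0.73 in nfil3-6, -0.67 in per1a and -0.66 in nr1d2a. In the glucocorticoid targets it was -1.32 in fkbp5 and -1.27 in klf9, and in the immediate early gene nr4a3 it was -0.80. In genes of transport and metabolism it was -1.45 in rhcga, -1.29 in dhrs13a.2, -1.11 in pnp5a, -1.01 in ucp3, -0.94 in pfkfb3 and -0.92 in pfkfb4b. In 1 ID of tomm22 it was 4.84, because that ID was listed at 0 at 97 hpf. With 3 libraries in a group, no single library was tested as standing apart.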

How the results depend on the processing

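Of 89 calls of named genes, 26 were kept under every alternative tried and 53 without any single library. No call turned its direction except after IDs of a symbol were summed, where pvalb2 gave 0.13 in each of the 3 comparisons with 96 hpf and hnrnpdl, a 3-ID gene picked after its values were seen, gave -0.061 over both ages and -0.11 at 98 hpf. Counts below are of genes called higher and lower, in the order of both ages pooled (32 and 12), 97 against 96 hpf (44 and 17), 98 against 96 hpf (34 and 18) and 98 against 97 hpf (2 and 29). Fitting only the 9 libraries gave 18 and 7, 17 and 4, 17 and 5, and 2 and 4, with 36 of the 89 calls lost. Fitting only the 18 untreated libraries gave 22 and 7, 29 and 6, 22 and 5, and 1 and 15, with 25 lost. An adjusted p of at most 0.01 gave 20 and 8, 28 and 4, 23 and 6, and 0 and 19. A fold of at least 2 gave 11 and 5, 14 and 8, 11 and 5, and 2 and 10, and no limit on the fold gave 166 and 144, 127 and 47, 143 and 167, and 12 and 82. A pseudocount of 0.1 gave 52 and 14, 53 and 20, 37 and 27, and 10 and 36. From 97 to 98 hpf the genes called higher were 5 with the filter at 5 TPM and 4 after scaling by the median of ratios. Summed IDs gave 9 lower at 97 hpf. Leaving out 1 library gave ranges of 28 to 43 and 8 to 14, 29 to 48 and 2 to 12, 21 to 49 and 10 to 56, and 2 to 6 and 19 to 35. Genes called lower were 2 at 97 hpf without the second 96 hpf library and 56 at 98 hpf without the third 98 hpf library. The cause of these shifts was not tested, beyond fewer libraries or other limits by construction. The replicate block, in which no library pairing was supported, gave 32 and 10, 46 and 16, 34 and 18, and 2 and 30, and lost 1 call, that of h3f3c. Quantile normalization, no trend, no filter and a pseudocount of 0.5 kept every count within 1.5 times. The study reports read numbers, which were not used here. The limit that depth sets on low genes such as cry5 was therefore not assessed, and their values rest on 3 libraries a group.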

Other observations

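The IDs that share reads moved with the groups beyond the 3 ages. The minor ID of pvalb2, at a mean of 1277 TPM at 96 hpf and 406 and 386 at 97 and 98 hpf, was at 404 TPM at 102 hpf but at 1226 and 1105 TPM in larvae held for 1 and 2 h at 10 °C. The minor ID of rpl30 was at 643, 398 and 412 TPM at the 3 ages and at 567 and 527 in the cold, and h3f3c was at 333, 206 and 194 TPM and at 280 and 289 in the cold. In each of the 3 both cold groups lay above untreated larvae of their own age. Whether true levels or the division of reads between copies differed was not tested.

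Several genes that fell from 97 to 98 hpf, picked after their values were seen, were ordered alike at 96 hpf. The first library was the highest and the third the lowest in dbpb, fkbp5, nr1d2a, per1a, rhcga, dhrs13a.2, pnp5a, ucp3 and pfkfb4b, with 68.8 and 26.7 TPM in fkbp5 and 56.4 and 20.8 TPM in rhcga. Of the other genes called lower in that step, nr1d1, nr4a3, lonrf1l and pfkfb3 did not show this order. nr1d2b, the most abundant Rev-erb gene, did not show it either, at 67.8, 84.6 and 66.5 TPM.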
